A study of Vitis vinifera with 6 samples.

Results

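The genes described here are those with more transcript in young berries of a seedless grapevine clone than in young berries of the seeded clone from which it arose. They were chosen by the values of the 2 young berry libraries: a gene was a member when its mean over both was at least 1 RPM (reads per 1000000 uniquely mapped reads of the library) and when its mutant value was at least 2 times its wild-type value after 0.5 RPM had been added to each. Of 28059 gene models, 60 were members. Another 11 genes met the same rule and were set apart by their identifiers: they lie in a stretch of chromosome 16 identifiers that holds ERF105 genes, or are ERF9, the names standing for ethylene-responsive transcription factors.

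mRNA-Seq had been made from 6 libraries of Vitis vinifera cv. Sangiovese, 1 for each clone and stage. The mutant is a spontaneous somatic variant whose berries are seedless, and the wild-type is the seeded Sangiovese clone. In both clones, collected on the same dates, libraries came from flowers in compact groups before fertilization (stage E-L 15), from enlarging young berries after fertilization (E-L 27) and from harvest-ripe berries (E-L 38), the stages being those of the modified Eichhorn-Lorenz scale. A sample was 1 whole inflorescence or bunch, RNA was taken from a lot of its flowers or berries with their tissues together, and each library pooled 3 extractions of 1 sample. With 1 library a group there was no replicate check of any difference between clones at a stage, and the mutant is 1 clone. The study compared stages within each clone and then set the clones side by side, in order to limit the effect of sampling the clones at slightly different stages of development.

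After fertilization the ovary wall of the grapevine flower grows into the berry. In the young berry, cells of the pericarp divide and then enlarge while ovules become seeds, which are a source of auxin and gibberellin for the tissue around them, and in seedless fruit this traffic is reduced or lost. Young green berries also make organic acids, tannins and the compounds and proteins with which the fruit meets pathogens and stress. Ripe berries have turned to the storage of sugar, to the softening of walls and, in black cultivars, to anthocyanins.

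Libraries held between 70331451 reads (mutant E-L 27) and 98800321 reads (wild-type E-L 38), so that 1 read was worth 0.0101 to 0.0142 RPM and a count of 0 allows a level of up to 0.0304 to 0.0427 RPM (3 reads). The labels were set beside marker genes. PISTILLATA, EXPB4 and oleosin are candidates that the study listed from these same libraries, so their levels are no independent check of the labels. PISTILLATA (VIT_18s0001g01760), a petal and stamen identity gene, had 854 RPM in mutant and 969 RPM in wild-type flowers, and at most 8.11 RPM in any berry library. The expansin gene EXPB4 (VIT_15s0021g02700), whose product loosens cell walls, had 1396 RPM in mutant and 1103 RPM in wild-type ripe berries, and at most 7.44 RPM elsewhere. Oleosin (VIT_17s0000g09000), which coats the oil bodies of seeds, had 0.0423 RPM in mutant and 36.3 RPM in wild-type ripe berries. The reference gene SAND (VIT_06s0004g02820) lay at 73.7 RPM in mutant and 72.5 RPM in wild-type young berries.

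At E-L 27, 0.378% of the 18787 genes past the minimum of 1 RPM were at least 2 times higher in the mutant and 1.96% at least 2 times lower, and the 60 members together with the 11 genes set apart are all of the first group. The members summed to 1633 RPM in the mutant and to 653.6 RPM in the wild-type. Their median was 8.64 RPM in the mutant and 3.18 RPM in the wild-type. The median log2 ratio was 1.21, with quartiles of 1.11 and 1.43, beside -0.03 over all 18787 genes. Most members stood close to the limit: 48 had a ratio between 2 and 3, and 12 one of at least 3. All of this describes how the genes were chosen and is not a finding. The counts behind the ratios were 110 to 14326 reads in the mutant and 6 to 6999 reads in the wild-type. For all 60 members the 95% interval of the RPM ratio (exact conditional binomial, counting error only) lay above 1. These intervals use the same libraries as the rule, so they are no separate evidence that the clones differ.

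Just inside the limit lay VIT_04s0008g05510, with 22.1 RPM in the mutant and 10.7 RPM in the wild-type (ratio 2.02), and VIT_01s0010g00720, with 3.65 RPM in the mutant and 1.57 RPM in the wild-type (2.004). Just outside lay VIT_09s0002g02940, with 36.3 RPM in the mutant and 17.9 RPM in the wild-type (1.998), and VIT_19s0014g04650, with 27.5 RPM in the mutant and 13.5 RPM in the wild-type (1.995).

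Flowers and berries taken whole differ in which tissues they hold, and from bulk RNA fewer cells of a type and less RNA per cell cannot be told apart. At the same stage SEEDSTICK (VIT_18s0041g01880), a MADS-box gene of ovule identity, had 10.7 RPM in the mutant and 67.4 RPM in the wild-type, and TRANSPARENT TESTA16 (VIT_01s0011g01560), which acts in the seed coat, had 2.43 RPM in the mutant and 14.2 RPM in the wild-type. Both ovule and seed coat markers were thus lower in mutant young berries. The study had listed both as candidates from these same libraries, as changed between stages in the wild-type only. They are therefore no separate evidence on tissue makeup. Several genes that mark the neighbouring stages, from the same list of candidates, were lower in mutant young berries too. PISTILLATA had 3.17 RPM in the mutant and 8.11 RPM in the wild-type, and EXPB4 1.96 RPM in the mutant and 7.44 RPM in the wild-type. A class IV chitinase gene (VIT_05s0094g00330) had 4.19 RPM in the mutant and 16.2 RPM in the wild-type. The flower gene AP3 (VIT_18s0001g13460) had 7.95 RPM in the mutant and 13.8 RPM in the wild-type. MALE STERILITY 1 (VIT_01s0011g06390), a gene of anther and pollen development, was alike, with 0.427 RPM in the mutant and 0.432 RPM in the wild-type. In flowers MALE STERILITY 1 had 3.18 RPM in the mutant and 29.9 RPM in the wild-type. The part of tissue makeup or of the exact stage of the bunches in the ratios of the members was not tested.

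**Figure D1:**
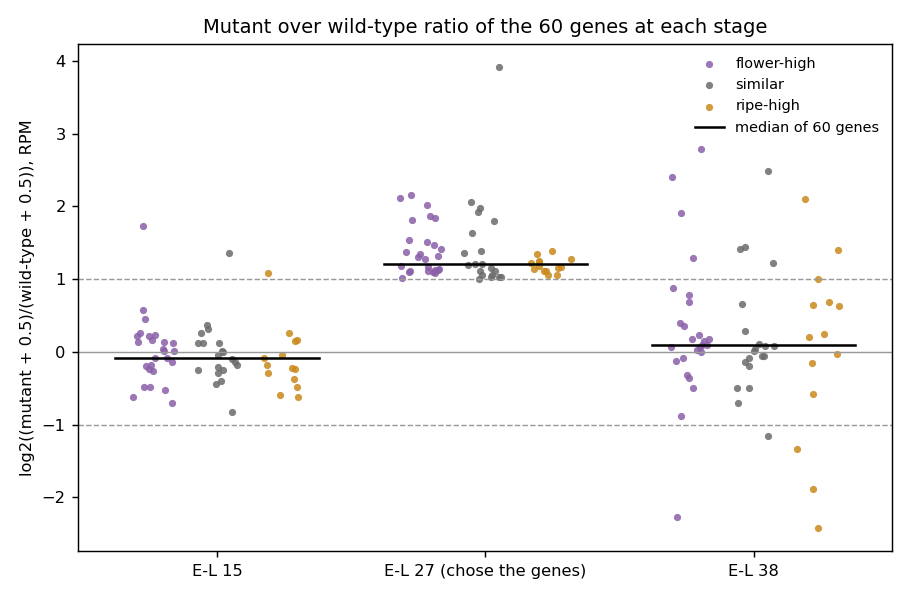
Mutant over wild-type ratio of each of the 60 genes in flowers (E-L 15), young berries (E-L 27) and ripe berries (E-L 38), on the log2 scale after 0.5 RPM was added; 1 point is 1 gene, colours give the class by flower and ripe berry level, black bars are medians and dashed lines mark ratios of 2 and of its inverse. By construction every point at E-L 27 lies at or above 1, while the median is -0.08 at E-L 15 and 0.09 at E-L 38, where the points spread between -2.42 and 2.80.

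The clearest presence in 1 library was that of VIT_19s0015g00070. It had 567 reads in mutant young berries (8.06 RPM) and 6 reads in wild-type young berries (0.0665 RPM). It had 4 reads in mutant flowers and 0 in wild-type flowers, and 13 reads in mutant and 6 in wild-type ripe berries. The 5 other libraries therefore held no more than 0.183 RPM, and mutant young berries alone held more. The RPM ratio between the young berry libraries was 121, with an interval of 55.4 to 332, and with 0.5 RPM added it was 15.1, the largest ratio of the 60.

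VIT_09s0002g09200 had the same form at a lower level. It had 2.23 RPM in mutant young berries, against 0.155 RPM in wild-type young berries. In flowers its level was 0.227 RPM in the mutant and 0.0864 RPM in the wild-type, and in ripe berries 0.0282 RPM in the mutant, with no read in the wild-type. Mutant young berries were again the only library above 0.5 RPM. VIT_14s0030g00260 was a young berry gene of both clones, near the limit of detection in flowers and ripe berries: 7.21 RPM in the mutant and 3.27 RPM in the wild-type, beside 0 to 0.205 RPM in the other 4 libraries.

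The next members by ratio were flower genes in part. VIT_03s0180g00250 had 6.10 RPM in mutant and 7.42 RPM in wild-type flowers, 5.05 RPM in mutant and 0.742 RPM in wild-type young berries, and 0.0988 RPM in mutant and 0.344 RPM in wild-type ripe berries. VIT_06s0004g04210 had 3.58 RPM in mutant and 3.23 RPM in wild-type flowers, 4.25 RPM in mutant and 0.676 RPM in wild-type young berries, and at most 0.113 RPM in ripe berries. For both genes the mutant young berry level stayed near that of flowers and the wild-type young berry level was well under it. The ratios after 0.5 RPM was added were 4.47 and 4.04. Here and below, changes to or from young berries use the values that chose the genes. A gap between the clones in such a change is therefore not a finding.

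VIT_11s0016g00660 and VIT_03s0063g00460 behaved otherwise, with mutant young berries far above flowers. VIT_11s0016g00660 had 3.31 RPM in mutant and 5.71 RPM in wild-type flowers, then 23.3 RPM in mutant and 5.01 RPM in wild-type young berries, and at most 0.0988 RPM in ripe berries. VIT_03s0063g00460 had 5.81 RPM in mutant and 8.36 RPM in wild-type flowers, 33.6 RPM in mutant and 9.21 RPM in wild-type young berries, and 0.409 RPM in mutant and 0.213 RPM in wild-type ripe berries. In wild-type bunches both genes thus had about the level of flowers at E-L 27: the young berry over flower ratio of VIT_03s0063g00460 was 5.79 (interval 5.26 to 6.38) in the mutant, against 1.10 (0.998 to 1.22) in the wild-type, and that of VIT_11s0016g00660 was 7.06 (6.23 to 8.02) in the mutant, against 0.876 (0.771 to 0.995) in the wild-type. As the young berry values chose both genes, nothing is read from the gap between the clones in these changes. At E-L 15 both genes were lower in the mutant, with ratios of 0.712 and 0.613.

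VIT_14s0066g02350 and VIT_11s0052g01200 were higher at E-L 27 than in flowers in both clones. VIT_14s0066g02350 had 28.99 RPM in mutant and 7.996 RPM in wild-type young berries, beside 3.07 RPM in mutant and 3.88 RPM in wild-type flowers. VIT_11s0052g01200 had 75.02 RPM in mutant and 28.3 RPM in wild-type young berries, beside 8.76 RPM in mutant and 10.5 RPM in wild-type flowers. Both were also higher in mutant ripe berries, where VIT_14s0066g02350 had 7.999 RPM against 3.15 RPM in the wild-type and VIT_11s0052g01200 had 9.59 RPM against 3.21 RPM in the wild-type.

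Of other members with large ratios or many reads, VIT_07s0104g01420 had 2.22 RPM in mutant and 0.377 RPM in wild-type young berries (ratio 3.10) and between 0.583 and 1.11 RPM in the 4 flower and ripe berry libraries. VIT_01s0127g00700 had 10.8 RPM in mutant and 9.83 RPM in wild-type flowers, 12.5 RPM in mutant and 4.496 RPM in wild-type young berries, and 2.54 RPM in mutant and 5.08 RPM in wild-type ripe berries. In this gene it was the wild-type young berry, and not the mutant one, that stood apart from flowers. VIT_19s0014g02240 had 63.1 RPM in mutant and 30.6 RPM in wild-type young berries, with ratios of 0.933 in flowers and 1.01 in ripe berries. VIT_18s0001g07320 had 49.0 RPM in mutant and 21.0 RPM in wild-type young berries, with ratios of 0.904 in flowers and 0.958 in ripe berries. The clones were close in these 2 genes wherever the rule had not looked. VIT_01s0026g00880 had 8.55 RPM in mutant and 2.77 RPM in wild-type young berries, beside 2.81 RPM in mutant and 2.32 RPM in wild-type flowers.

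In the text and tables of the study that were used here, a product name was found for 1 member. The study describes Avr9/Cf-9 rapidly elicited protein 20 as acting early in the defense response in tomato, and VIT_12s0134g00240 is annotated with this name. From the same libraries, the study lists it as a candidate for seed content. There it was called as changed from flowers to young berries in the mutant and not in the wild-type. VIT_12s0134g00240 had 9.69 RPM in mutant and 17.7 RPM in wild-type flowers, 77.1 RPM in mutant and 36.7 RPM in wild-type young berries, and 22.7 RPM in mutant and 21.5 RPM in wild-type ripe berries. After 0.5 RPM was added the gene had a mutant over wild-type ratio of 0.561 in flowers, 2.08 in young berries and 1.05 in ripe berries. From flowers to young berries the level was 7.95 times as high in the mutant (interval 7.40 to 8.56) and 2.08 times in the wild-type (1.96 to 2.21). Since the young berry values chose the gene, nothing is read from this gap.

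The 11 genes set apart, of which the named ones encode ERF transcription factors, were likewise lower in mutant flowers. In young berries their ratios lay between 2.03 and 4 with a median of 3.47, in flowers between 0.526 and 0.96 with a median of 0.702, and in ripe berries between 0.356 and 1.16 with a median of 0.7. Their young berry levels were 3.04 to 62.5 RPM in the mutant and 0.875 to 30.5 RPM in the wild-type. All 11 were therefore below 1 in flowers, where 26 of the 60 members were above 1.

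**Figure D2:**
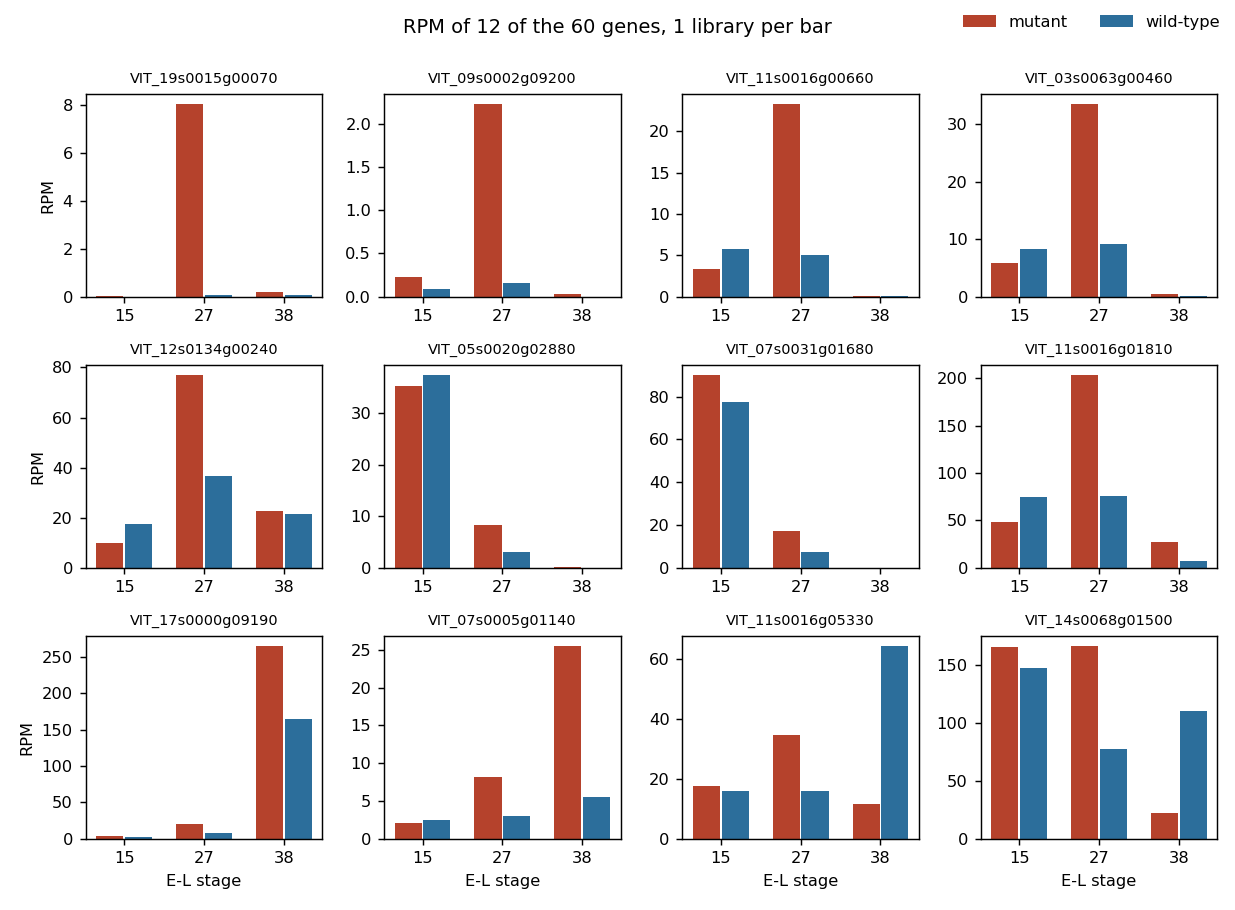
RPM of 12 of the 60 genes by stage (E-L 15, 27 and 38); each bar is 1 library, mutant left of wild-type, and each panel has its own scale from 0. VIT_19s0015g00070 stands in mutant E-L 27 alone, VIT_07s0031g01680 falls off after the flower in both clones, VIT_17s0000g09190 is a ripe berry gene in both, and VIT_11s0016g05330 and VIT_14s0068g01500 have the mutant above the wild-type at E-L 27 and below it at E-L 38.

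Flower and ripe berry libraries, which the rule did not use, were taken to sort the members. With the clones averaged, 26 of 60 members (43.3%) were at least 2 times higher in flowers than in ripe berries and are called flower-high below. Another 14 (23.3%) were at least 2 times higher in ripe berries and are called ripe-high, and 20 (33.3%) were similar. A class can rest on 1 clone. In the mutant, the ripe-high VIT_11s0016g05330 had 17.8 RPM in flowers and 11.6 RPM in ripe berries. The ripe-high VIT_18s0001g11430 had 0.0682 and 0.0988 RPM there. In the wild-type, the flower-high VIT_14s0068g01500 had 147.4 RPM in flowers and 110.5 RPM in ripe berries. Over the 18787 genes the shares were 33.7% flower-high, 12.7% ripe-high and 53.6% similar. By this 2-fold measure, genes that differ between flower and ripe berry made up more of the set than of all genes. The edgeR fit given below did not show such an excess: 34 of 56 members passed for stage, against 58.4% of the 23043 genes tested. At E-L 27 the median log2 ratio was 1.32 in the flower-high class, 1.17 in the ripe-high class and 1.20 in the similar class. Ratios above 3 were found among the flower-high and similar members, and no ripe-high member was above 2.61. The E-L 27 ratio is the value that chose the members, so no difference between the classes is read from it.

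Of the 26 flower-high members, 10 had their highest level in flowers in the mutant, against 19 in the wild-type, beside 59.1% of all flower-high genes in mutant and 59.5% in wild-type libraries. In the mutant the other 16 were highest in young berries. These counts rest on the young berry values that chose the genes, high in the mutant and low in the wild-type, and nothing is read from their gap. Among these, VIT_06s0080g01090 had 38.9 RPM in mutant and 46.1 RPM in wild-type flowers, 151.7 RPM in mutant and 52.9 RPM in wild-type young berries, and 19.8 RPM in mutant and 21.7 RPM in wild-type ripe berries. VIT_11s0016g01810 had 48.0 RPM in mutant and 74.5 RPM in wild-type flowers, 203.7 RPM in mutant and 76.1 RPM in wild-type young berries, and 27.1 RPM in mutant and 6.86 RPM in wild-type ripe berries. In wild-type bunches both were about level between flower and young berry. In the mutant both were close to 4 times higher in young berries, with ratios of 3.90 (interval 3.75 to 4.05) and 4.24 (4.10 to 4.39). These ratios use the young berry values that chose the genes, so nothing is read from the gap between the clones.

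VIT_02s0025g04460 had 11.9 RPM in mutant and 12.7 RPM in wild-type flowers, 30.2 RPM in mutant and 10.1 RPM in wild-type young berries, and 8.58 RPM in mutant and 1.21 RPM in wild-type ripe berries. It was higher in the mutant in both berry libraries and not in flowers. VIT_09s0002g02460 had 11.2 RPM in mutant and 8.03 RPM in wild-type flowers, 18.2 RPM in mutant and 4.71 RPM in wild-type young berries, no read in mutant ripe berries and 0.121 RPM in wild-type ripe berries. VIT_04s0008g02230 had 0.773 RPM in mutant and 0.907 RPM in wild-type flowers, 3.23 RPM in mutant and 0.520 RPM in wild-type young berries, no read in mutant ripe berries and 0.0304 RPM in wild-type ripe berries. Of these genes, then, only VIT_02s0025g04460 was still above 1 RPM in ripe berries.

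Some flower genes were members although their level had dropped in young berries of both clones. VIT_07s0031g01680 had 90.3 RPM in mutant and 77.7 RPM in wild-type flowers, 17.3 RPM in mutant and 7.60 RPM in wild-type young berries, and at most 0.0564 RPM in ripe berries. VIT_05s0020g02880 had 35.4 RPM in mutant and 37.5 RPM in wild-type flowers, 8.35 RPM in mutant and 2.97 RPM in wild-type young berries, and at most 0.113 RPM in ripe berries. VIT_08s0007g00920 had 40.3 RPM in mutant and 39.9 RPM in wild-type flowers, then 3.47 RPM in mutant and 1.36 RPM in wild-type young berries. For these 3 genes the clones were close in flowers, with ratios of 1.16, 0.944 and 1.01, and it is what remained in the young berry that differed. The flower level was 12.7 times the young berry level of VIT_05s0020g02880 in the wild-type (interval 11.2 to 14.4), where in the mutant it was 4.24 times (3.88 to 4.64). VIT_07s0151g01000, at 2.39 RPM in mutant and 0.653 RPM in wild-type young berries, was of the same kind, with 24.2 RPM in mutant and 27.9 RPM in wild-type flowers. For these genes too, the young berry values are those that chose them.

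The ripe-high members included VIT_17s0000g09190 and VIT_07s0005g01140. VIT_17s0000g09190 had 3.20 RPM in mutant and 2.58 RPM in wild-type flowers, 20.4 RPM in mutant and 8.35 RPM in wild-type young berries, and 265.1 RPM in mutant and 164.7 RPM in wild-type ripe berries. VIT_07s0005g01140 had 2.10 RPM in mutant and 2.45 RPM in wild-type flowers, 8.16 RPM in mutant and 3.08 RPM in wild-type young berries, and 25.5 RPM in mutant and 5.58 RPM in wild-type ripe berries. These were the only members at least 2 times higher in ripe than in young berries of the mutant, and in both the mutant was above the wild-type at each berry stage. Of the same class and with many reads, VIT_08s0032g01150 had 81.7 RPM in mutant and 36.9 RPM in wild-type young berries, and VIT_05s0077g01970 had 94.96 RPM in mutant and 39.5 RPM in wild-type young berries.

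**Figure D3:**
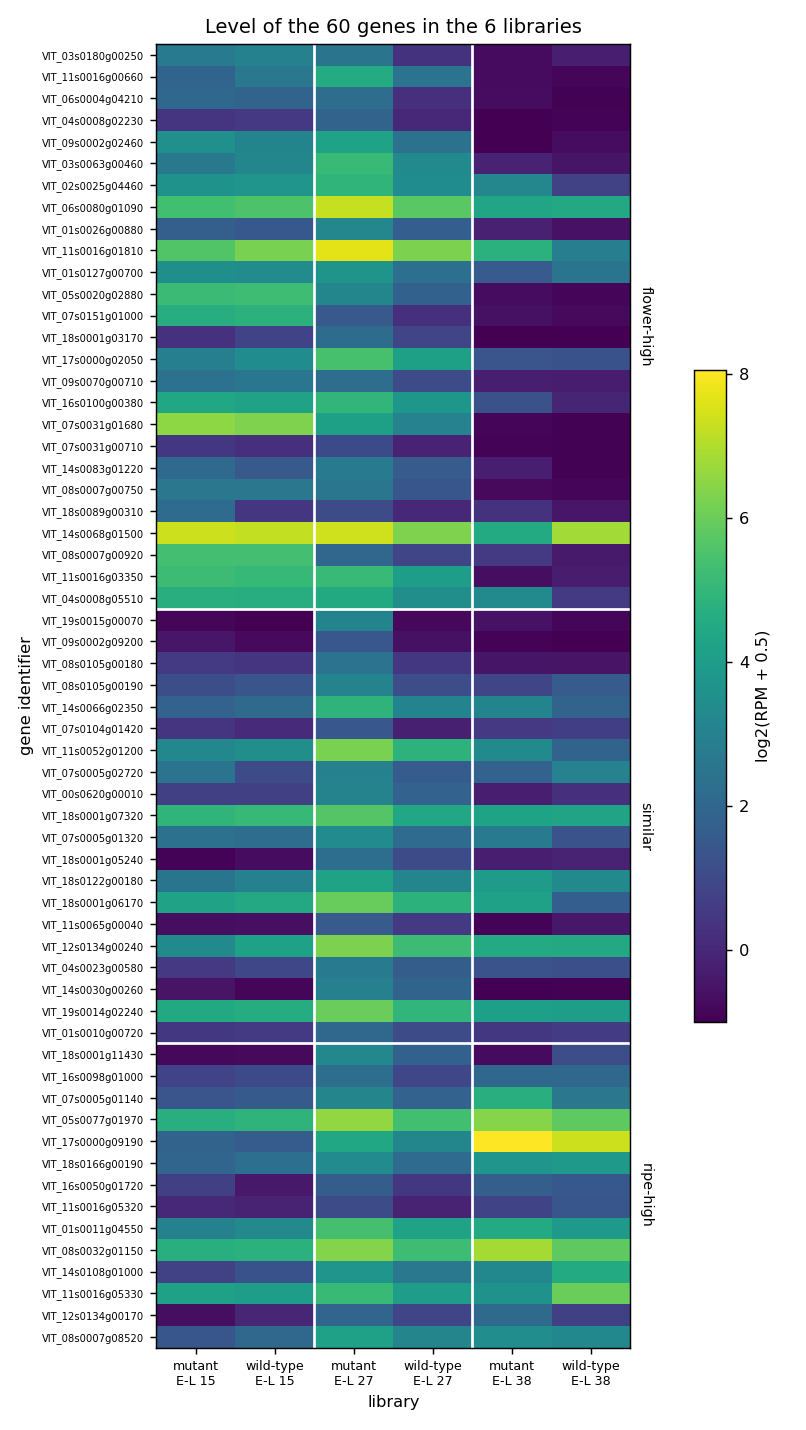
Level of each of the 60 genes (rows, by identifier) in the 6 libraries (columns, mutant left of wild-type at each stage), as log2(RPM + 0.5); white lines part the stages and the flower-high, similar and ripe-high classes, and rows run from the largest to the smallest E-L 27 ratio within a class. In each row the mutant E-L 27 cell is brighter than the wild-type E-L 27 cell, as the rule requires; the 26 rows of the upper block are at least 2 times higher in flowers than in ripe berries with the clones averaged, and the 14 of the lower block the other way. RPM is not divided by gene length, so rows are to be read across and not against each other.

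In flowers the clones were near each other for most members. At E-L 15, 3 members (5%) were at least 2 times higher in the mutant, against 0.208% of all genes, and 0 were at least 2 times lower, against 0.367% of all genes. The median log2 ratio of the members was -0.08, beside -0.02 over all genes, and the quartiles were -0.26 and 0.15. Above 0 were 26 of 60 members, a share near that of all genes (46.1%). The 60 members summed to 812.2 RPM in mutant and to 841.4 RPM in wild-type flowers.

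The 3 members at least 2 times higher in mutant flowers after 0.5 RPM was added were VIT_18s0089g00310, VIT_07s0005g02720 and VIT_16s0050g01720. VIT_18s0089g00310 had 4 RPM in mutant and 0.853 RPM in wild-type flowers (RPM ratio 4.69, interval 3.66 to 6.06), and stayed higher in the mutant in young berries (1.66 against 0.498 RPM in the wild-type) and in ripe berries (0.762 against 0.233 RPM in the wild-type). VIT_16s0050g01720 had 1.14 RPM in mutant and 0.270 RPM in wild-type flowers (4.21, 2.69 to 6.81), 2.65 RPM in mutant and 0.886 RPM in wild-type young berries, and 2.88 RPM in mutant and 2.34 RPM in wild-type ripe berries. VIT_07s0005g02720 had 4.90 RPM in mutant and 1.60 RPM in wild-type flowers (3.06, 2.54 to 3.72) and 7.44 RPM in mutant and 2.60 RPM in wild-type young berries, but 3.10 RPM in mutant and 7.58 RPM in wild-type ripe berries (0.409, 0.351 to 0.476). In VIT_18s0089g00310 and VIT_16s0050g01720 the mutant was thus higher at all 3 stages, and in VIT_07s0005g02720 the clones changed sides in ripe berries.

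In ripe berries the members were more spread. At E-L 38, 11 members (18.3%) were at least 2 times higher in the mutant, against 1.2% of all genes, and 5 (8.33%) at least 2 times lower, against 4.86%. The median log2 ratio of the members was 0.09, beside -0.08 over all genes, and 37 of 60 were above 0, against 37.8% of all genes. The members summed to 788.8 RPM in mutant and to 661.8 RPM in wild-type ripe berries. The libraries of this stage differ in makeup as well: the 10 genes with most reads took 8.78% of mutant reads and 6.8% of wild-type reads, and the median of all genes moved to 0.02 when TMM factors replaced the library totals, with 12 members then higher and 5 lower. The 9 seed markers were listed by the study, from these same libraries, as changed between stages in the wild-type only. They had 0 to 1.14 RPM in mutant and 16.98 to 453 RPM in wild-type ripe berries. The part of either in the ratios of the members was not tested.

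Among members higher in mutant ripe berries, VIT_04s0008g05510 had 25.3 RPM in mutant and 24.6 RPM in wild-type flowers, and 9.65 RPM in mutant and 0.962 RPM in wild-type ripe berries (RPM ratio 10.04, interval 8.09 to 12.6). VIT_18s0001g06170 had 18 RPM in mutant and 21.5 RPM in wild-type flowers, 60.9 RPM in mutant and 28.0 RPM in wild-type young berries, and 17.58 RPM in mutant and 2.72 RPM in wild-type ripe berries (6.46, 5.65 to 7.39). For VIT_02s0025g04460 the ratio in ripe berries was 7.06 (5.80 to 8.66), for VIT_07s0005g01140 4.58 (4.16 to 5.05) and for VIT_11s0016g01810 3.96 (3.62 to 4.32). All 5 had ratios between 0.647 and 1.03 in flowers after 0.5 RPM was added, so the higher level of the mutant was seen in the berry libraries and not before. The other 6 had ratios between 2.01 and 2.72 in ripe berries.

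The 5 members lower in mutant ripe berries had the clones in opposite order in young and in ripe fruit. VIT_11s0016g05330 had 17.8 RPM in mutant and 15.8 RPM in wild-type flowers, 34.7 RPM in mutant and 15.8 RPM in wild-type young berries, and 11.6 RPM in mutant and 64.5 RPM in wild-type ripe berries (ratio 0.180, interval 0.168 to 0.194). VIT_14s0068g01500 had 165.5 RPM in mutant and 147.4 RPM in wild-type flowers, 166.9 RPM in mutant and 77.5 RPM in wild-type young berries, and 22.6 RPM in mutant and 110.5 RPM in wild-type ripe berries (0.204, 0.194 to 0.215). In the mutant both were lower in ripe than in young berries, and in the wild-type both were higher, by 4.08 times (3.85 to 4.32) for VIT_11s0016g05330 and by 1.43 times (1.38 to 1.47) for VIT_14s0068g01500. The others were VIT_18s0001g11430, with 7 reads in mutant and 169 reads in wild-type ripe berries, VIT_14s0108g01000, with 8.77 RPM in mutant and 22.9 RPM in wild-type ripe berries, and VIT_07s0005g02720, given above.

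Flower and ripe berry libraries together allow a test for a clone difference shared by both stages, on data that the rule did not use. In edgeR's quasi-likelihood fit of these 4 libraries, with terms for stage and clone and 1 residual degree of freedom, 0 of 23043 genes (0%) passed an adjusted p-value (Benjamini-Hochberg) of 0.05 for the clone, and 0 of the 56 members tested did. At an unadjusted p-value of 0.05 the counts were 436 genes (1.89%) and 3 members, and by the Wald test of DESeq2 27 genes passed the adjusted threshold, with 0 of 53 members among them. The 3 members were VIT_18s0089g00310 (log2 difference of mutant minus wild-type 2.03), VIT_17s0000g09190 (0.57) and VIT_14s0108g01000 (-0.98), each with an edgeR adjusted p-value of 0.995. The 4 members not tested, VIT_19s0015g00070, VIT_09s0002g09200, VIT_14s0030g00260 and VIT_18s0001g11430, did not pass the filter on low counts, the last having 169 reads in wild-type ripe berries and 6 to 8 reads in each of the other 3 libraries. Without that filter all 60 members were tested and 0 passed. The members' median log2 difference in the fit was 0.15, beside -0.02 over all genes tested. Beyond the young berry libraries that chose them, then, no member was found to differ between the clones over both other stages by this test. That does not show that the clones were alike in them. A clone difference at only 1 of the stages counts as scatter in this fit, which could hardly call it.

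The stages themselves differed for many members in the same fit. For E-L 38 against E-L 15, 34 of 56 members passed, 12 of them higher in ripe berries and 22 lower. Over all genes 58.4% passed, 26.6% higher and 31.8% lower, so that the share of members called was near that of all genes. At an unadjusted p-value of 0.05 the counts were 37 members and 64.8% of all genes. The largest log2 difference downward was -10.76 for VIT_07s0031g01680 (edgeR adjusted p-value 0.002), and the largest upward was 6.56 for VIT_17s0000g09190 (0.002). VIT_05s0020g02880 (-8.59, 0.00251) and VIT_11s0016g00660 (-5.64, 0.00891) fell as well, and VIT_07s0005g01140 rose by 2.77 (0.049).

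Within the mutant, 38 of 60 members were at least 2 times higher in young berries than in flowers, against 8.91% of all genes, and 5 at least 2 times lower, against 6.97%. In the wild-type 10 members were higher, against 9.91% of all genes, and 11 lower, against 6.4%. The median log2 change was 1.56 in mutant bunches and 0.06 in wild-type bunches. These counts share the young berry libraries with the rule, which selects for a high mutant value and a low wild-type value, so nothing is read from the gap between the clones. The 5 lower in the mutant were VIT_07s0031g01680, VIT_05s0020g02880, VIT_08s0007g00920, VIT_07s0151g01000 and VIT_18s0089g00310. All but VIT_18s0089g00310 were at least 2 times lower in the wild-type too.

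**Figure D4:**
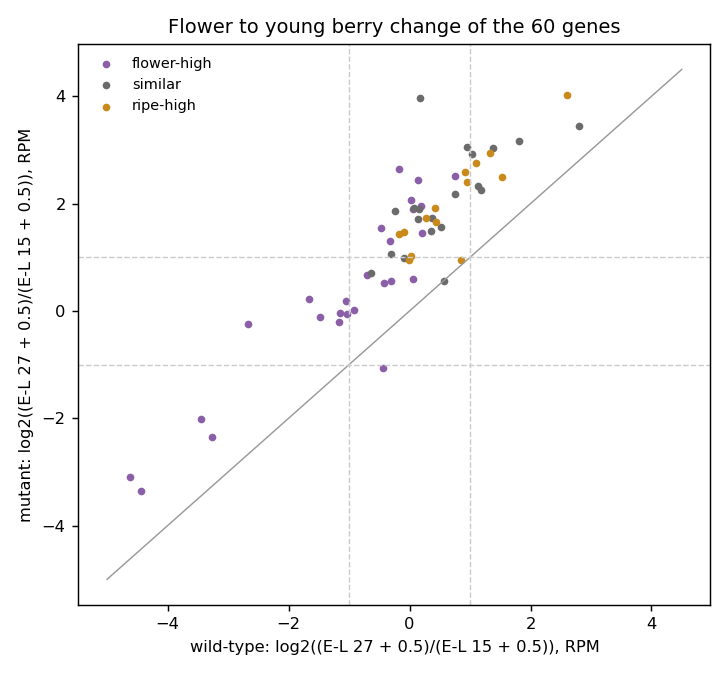
Change from flower to young berry of each of the 60 genes, as log2 of E-L 27 over E-L 15 after 0.5 RPM was added, with the mutant on the y axis and the wild-type on the x axis; the line marks equal change and dashed lines mark 2-fold changes. Most points lie above the line, which the choice of genes at E-L 27 brings with it, and the log2 changes run from -3.36 to 4.02 in mutant libraries and from -4.62 to 2.79 in wild-type libraries.

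From young to ripe berries 44 members were at least 2 times lower in the mutant, against 36.5% of all genes, and 2 higher, against 11.4%. In the wild-type 26 were lower, against 33.7%, and 8 higher, against 11.4%. Mutant young berries were the highest mutant stage for 44 members, against 35.5% of all genes, and wild-type young berries were the highest wild-type stage for 24, against 34.6%. For 23 members the peak lay at E-L 27 in both clones, against 28.1% of all genes. For 11 it lay at E-L 27 in the mutant and in flowers in the wild-type (4.67% of all genes), and for 10 at E-L 27 in the mutant and in ripe berries in the wild-type (2.68%). These peaks, too, rest on the libraries that the rule used. VIT_12s0134g00170, with 3.34 RPM in mutant and 1.34 RPM in wild-type young berries, peaked in ripe berries in the mutant (3.85 RPM, against 1.14 RPM in the wild-type) and at E-L 27 in the wild-type. From flowers to ripe berries, where neither library took part in the choice, 14 members were higher and 24 lower in the mutant, and 12 higher and 25 lower in the wild-type, beside 12.4% and 35.6% of all genes in the mutant and 13.3% and 33% in the wild-type. For this span the clones had nearly the same counts.

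By the chromosome number that each identifier carries in the 12x annotation, members lay on 16 of 19 chromosomes, and 1, VIT_00s0620g00010, was unassigned. Chromosome 18 held 8 members (13.3%, against 7.57% of all genes). Chromosomes 7 and 11 held 7 each (11.7%, against 5.83% and 4.51% of all genes). Chromosomes 10, 13 and 15 held 0, beside 3.15%, 5.48% and 3.39% of all genes. Chromosome 16 held 3, and most of the 11 genes set apart carry its number and were not counted. Whether members were unevenly spread over chromosomes was not tested. In 2 places members were neighbours in the order of identifiers. VIT_08s0105g00180 had 4.95 RPM in mutant and 0.886 RPM in wild-type young berries, and VIT_08s0105g00190 next to it had 7.79 RPM in the mutant and 1.68 RPM in the wild-type. Their ratios were 3.93 and 3.80, and in flowers and ripe berries neither was at least 2 times higher or lower in the mutant. VIT_11s0016g05320 had 1.59 RPM in mutant and 0.432 RPM in wild-type young berries, with a ratio close to that of its neighbour VIT_11s0016g05330 (2.25 and 2.16). Both of that pair were ripe-high with the clones averaged, VIT_11s0016g05330 through the wild-type alone. In ripe berries both were lower in the mutant, with VIT_11s0016g05320 at 1.31 RPM against 2.21 RPM in the wild-type. VIT_12s0134g00170 and VIT_12s0134g00240 lay 8 places apart counted inclusively, and none of the 6 genes between them was a member. Reads that fit several places were not counted, and whether neighbouring members are alike in sequence was not analysed here.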

How the data were processed

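Per the deposited table, each library has for every gene model a count of uniquely mapped reads and its RPM. BWA was used by the authors to place reads on the v1 models of the 12x PN40024 genome; they kept uniquely placed reads with SAMtools, summed them per model and scaled the counts to RPM by the uniquely mapped reads of the library, without division by length. Versions are not given in the sources used here. It was checked that counts are whole and that RPM equals the count per 1000000 reads (largest difference 5.5e-11).

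Members and lists were chosen with earlier results of these data known. Ratios are (mutant + 0.5)/(wild-type + 0.5) RPM unless given with an interval or called RPM ratios, which are quotients of RPM without addition and have 95% exact conditional binomial (Clopper-Pearson) intervals. Shares of all genes refer to the 18787 genes past the minimum mean of 1 RPM in young berries. The 4 libraries of E-L 15 and E-L 38 were fitted with edgeR 4.0.16 in R 4.3.3 (filterByExpr, TMM, stage and clone), with adjustment over all genes tested. The steps were also run on simulated counts with a clone change equal at both stages, and the outcome is not given here. That run does not bear on a change at only 1 stage. Python 3.11.15, numpy 2.4.6, scipy 1.17.1, pandas 2.3.3 and matplotlib 3.10.9 served for the rest. Alternatives were 0.05 or 1 RPM added, means of at least 5 or 0.1 RPM, TMM or median-of-ratios factors, libraries thinned to equal depth, DESeq2 1.42.0 and no filter.

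Members were named when among the 20 largest ratios or the 10 with most reads in mutant young berries, when annotated in the study, when next to the limit or within 10 identifiers of another member, and when past 2-fold at another stage (up to 5 a direction). VIT_05s0020g02880, VIT_07s0031g01680, VIT_07s0151g01000, VIT_08s0007g00920, VIT_14s0030g00260, VIT_17s0000g09190 and VIT_00s0620g00010 were named after their values were seen. The deposited table gives no product names, and names were taken from a limited set of annotations in the study. Other members may carry names in parts of the study that were not used. As 0 of 28059 identifiers matched the RefSeq gene table, product-name gene lists, sequences and promoter motifs were not used here.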

Additional observations from a re-analysis of the deposited data

Results flagged for a closer look

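VIT_07s0005g02720 had a log2 ratio of mutant over wild-type of 1.36 in flowers and of -1.17 in ripe berries, a difference of 2.53 between the stages. It was singled out because the clones stood in opposite order at the 2 stages, each by more than 2-fold. With 1 library a group the difference was not tested.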

How the results depend on the processing

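The number of members depended on the amount added and on the minimum: with 0.05 RPM added the rule took 97 genes, the 60 among them, and with a mean of at least 5 RPM it took 36. With 0.05 RPM added, 5 members were at least 2 times higher and 2 at least 2 times lower in mutant flowers, and 8 at least 2 times lower in mutant ripe berries. For the clone effect over E-L 15 and E-L 38, DESeq2 called 27 genes, none of them a member, where edgeR called 0. Of 75 alternative values for 17 results, the other 69 stayed within 1.5 times the count reported or, for medians, moved little. TMM factors gave a median log2 ratio of all genes at E-L 38 of 0.02, where library totals gave -0.08, and 66 members, 58 of them shared. The fit of the clones kept stage as a term, and so compared them within stages. No replicate could be left out, since each clone has 1 library a stage. Of the 60 members, 19 had under 10 reads in at least 1 library, and ratios there are not precise.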
